A study of Danio rerio with 11 samples.

Results

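The transcription factors gata2a, gata3, fev and lmx1b were described in intraspinal serotonergic neurons (ISNs) of zebrafish, the serotonin-producing cells that lie inside the spinal cord. These 4 factors were chosen by name, and they stand under 5 of the 39714 gene IDs of the expression table. The IDs are ENSDARG00000059327 for gata2a, ENSDARG00000016526 for gata3, ENSDARG00000009242 for fev, and ENSDARG00000068365 and ENSDARG00000104815, which a table of gene names both calls LMX1B. The last pair is written lmx1b-68365 and lmx1b-104815 here. The names table does not say which of them is lmx1ba and which lmx1bb, and no coordinates were used.

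ISNs were sorted by fluorescence from the Tg(tph2:GFP) line, in which the tph2 promoter drives green fluorescent protein, at 6 to 8 weeks after a spinal cord injury. The injury segment gave 6 bulk RNA libraries and the distal segments of the cord gave 5. All fish carried the transgene and all were injured, so the distal segments are not an uninjured control. Both kinds of segment came from the same fish according to the study's methods, but the labels do not tie a replicate number to a fish. The deposited values are FPKM, the fragments of a gene divided by its length in kilobases and by the library's mapped fragments in units of 1000000, and can be compared between genes because they are per length. Log2 values are of FPKM plus 1, which understates differences of low genes.

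In the mouse hindbrain, serotonergic fate is set by a cascade in which ventral regulators such as Nkx2-2 and Foxa2 act before the zinc-finger factors Gata2 and Gata3, the LIM homeodomain factor Lmx1b and the ETS factor Fev, also called Pet1. Fev and Lmx1b go on to maintain the genes that make, package and take up serotonin in mature neurons, including Tph2. Gata2 and Gata3 also mark V2b and cerebrospinal fluid-contacting neurons of the spinal cord, and Lmx1b also marks neurons of the dorsal horn.

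The libraries held 14215980 to 19709661 fragments on genes, recovered from the FPKM values, but the number of genes with at least 1 FPKM varied more, between 4530 and 16019 in injury libraries and between 8448 and 14208 in distal libraries. Injury replicates 2 and 3 had the fewest, 5443 and 4530. All 5 IDs of the serotonergic marker list (TPH2, DDC, SLC18A2, SLC6A4 and GCH1) were above 0 in all 11 libraries. The p-values below rest on the spread between these libraries, since nothing states how many fish or cells each holds. The limma tests used further on also draw each gene's variance toward that of genes of like level (the trend). Tests over all 11 libraries take them as independent, though both kinds of segment came from the same fish.

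gata2a, gata3, fev and lmx1b-68365 were present at high level in every library of both segments, whereas lmx1b-104815 was low and was listed at 0 in 4 of the 11. fev was the most abundant of them, followed by gata3, gata2a and lmx1b-68365, in both groups of libraries. None of the 5 IDs passed the test between injury segment and distal segments. The fragments behind the 4 abundant IDs ran from 3637 to 63494 a library. Their counting error would be at most 1.66% if each fragment were an independent molecule. Amplified fragments are not, so the error of sampling RNA from the sorted cells can be larger and was not measured.

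**Figure D1:**
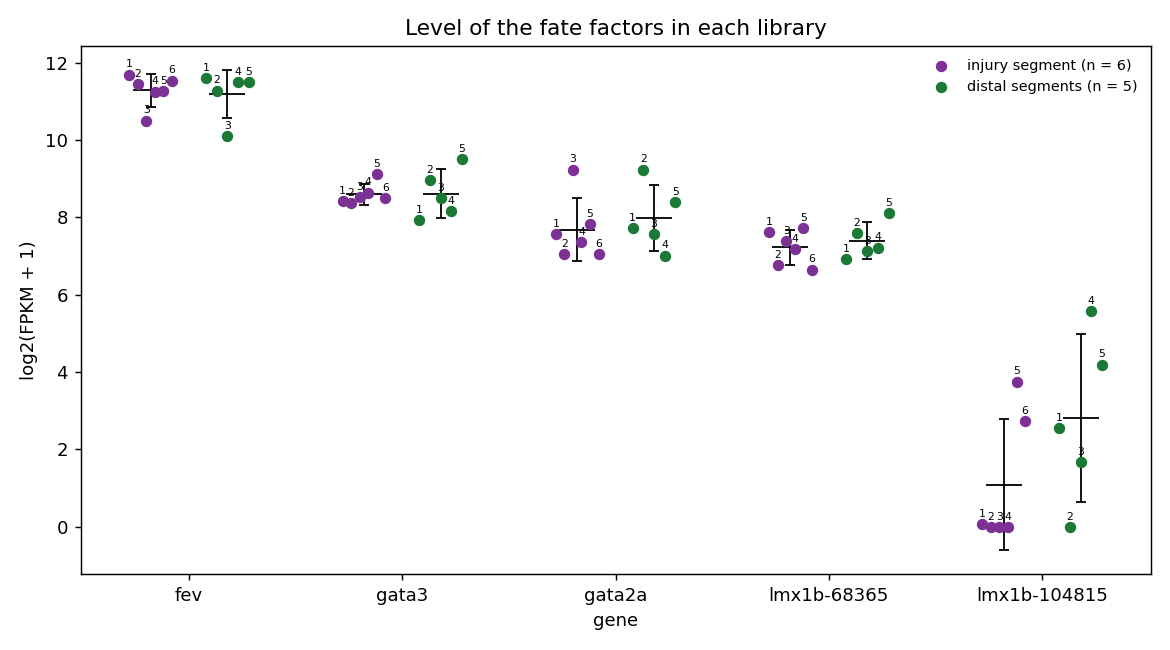
Level of each gene ID (log2 of FPKM plus 1, y axis) in 6 injury segment libraries (purple, left of each pair) and 5 distal segments libraries (green), with the replicate number above each point and black bars for the mean and SD. fev lies at 10.50 to 11.69 in the injury segment, above every other ID, and both groups overlap for each of the 5 IDs.

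fev encodes the ETS factor that defines serotonergic neurons. Its lowest, median and highest values were 1450, 2636 and 3304 FPKM in the injury segment, and it had 3111, 2481, 1103, 2878 and 2880 FPKM in distal replicates 1 to 5. Replicate 3 was lowest in both groups, at 1450 FPKM in the injury segment and 1103 FPKM in the distal segments, and the groups overlapped. The mean was 2572 ± 638 FPKM in the injury segment (SD, n = 6) and 2490 ± 808 FPKM in the distal segments (SD, n = 5). fev ranked 16 to 39 from the top of all gene IDs in injury libraries and 18 to 74 in distal libraries.

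gata3 encodes a zinc-finger factor that, in mice, is needed for serotonergic neurons of the caudal hindbrain. It had a lowest, median and highest value of 328, 365 and 553 FPKM in the injury segment, against 242, 498, 359, 285 and 731 FPKM in distal replicates 1 to 5. Replicate 5 was highest in both groups, and all 6 injury values fell inside the distal range. The coefficient of variation was 21.1% over injury libraries and 46.7% over distal libraries. gata3 ranked 125 to 366 in the injury segment and 96 to 454 in the distal segments.

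gata2a, a paralogue of gata3, varied most among the 4 abundant IDs. Its lowest, median and highest values were 131, 176 and 603 FPKM in the injury segment, and it had 210, 602, 189, 128 and 336 FPKM in distal replicates 1 to 5. A single library of each group stood high, injury replicate 3 at 603 FPKM and distal replicate 2 at 602 FPKM, while the other injury libraries lay between 131 and 225 FPKM. Its rank ran from 122 to 778 in injury libraries and from 111 to 817 in distal libraries. Injury replicate 3 also had the fewest genes detected of all 11 libraries, and the part of that in the high gata2a value was not tested.

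lmx1b-68365, an ID of the LIM homeodomain factor, had a lowest, median and highest value of 99.6, 156 and 212 FPKM in the injury segment, against 121, 193, 139, 148 and 277 FPKM in distal replicates 1 to 5. The groups overlapped over most of their range. It ranked 365 to 893 in the injury segment and 315 to 827 in the distal segments, so that each of the 4 abundant IDs was among the 893 highest of 39714 IDs in every library. lmx1b-104815 is described further on.

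**Figure D2:**
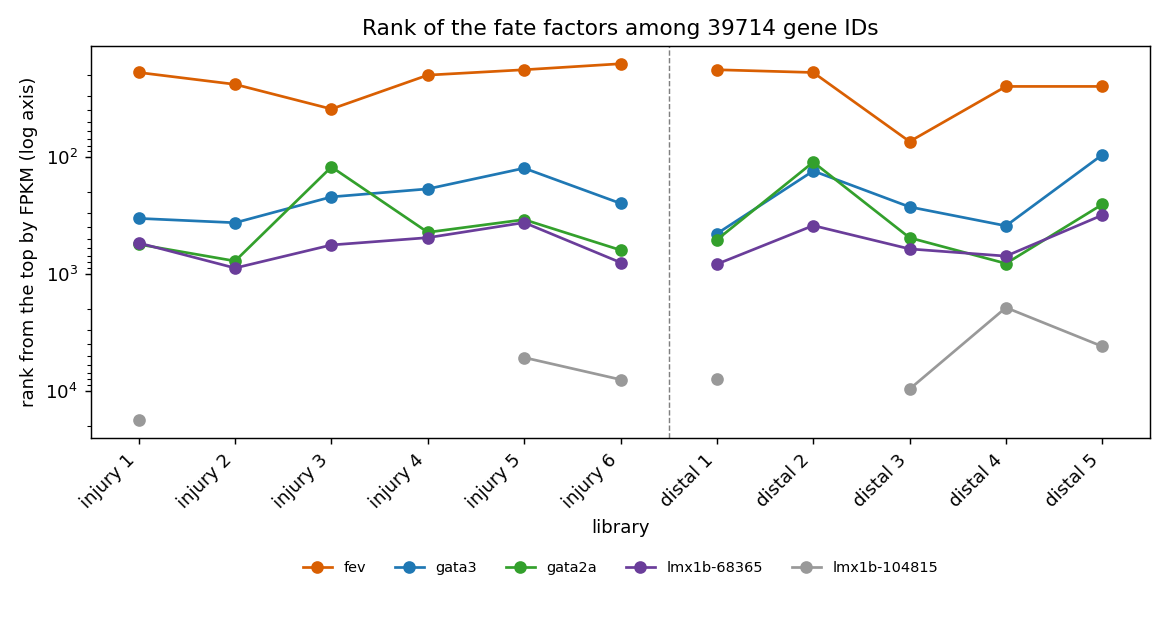
Rank from the top by FPKM (log y axis, rank 1 highest) of each gene ID in each library (x axis), injury segment left and distal segments right of the dashed line, with libraries listed at 0 left out. fev keeps ranks of 16 to 74, and lmx1b-104815 lies at rank 1946 or further down wherever it is above 0.

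The spread over all 11 libraries was small for 3 of the IDs. The SD of the log2 value was 0.45 for gata3, 0.49 for fev and 0.44 for lmx1b-68365, against a median SD of 0.92 over the 2281 genes above 0 in every library that averaged 1 FPKM or more. Of those genes, 3.55% had a smaller SD than gata3, 5.39% a smaller one than fev and 3.20% a smaller one than lmx1b-68365. For gata2a the SD was 0.81, and 37.9% of the genes had a smaller one. These are descriptions with no test, and the genes compared were not matched for level. The 3 IDs averaged 164 to 2535 FPKM over the 11 libraries, and the part of a high level in their small spread was not tested.

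The order of the levels was compared inside each library with exact two-sided sign-flip permutation tests, for 5 comparisons in all. fev was higher than gata3 in 11 of 11 libraries, by 2.64 ± 0.68 on the log2 scale (SD, n = 11; exact p 0.000977, the smallest that 11 libraries allow; Benjamini-Hochberg 0.00244). gata3 was higher than gata2a in 9 of 11 libraries, by 0.78 ± 0.72 (exact p 0.00879, Benjamini-Hochberg 0.00879). The exceptions were injury replicate 3 and distal replicate 2, the libraries with the high gata2a values. gata2a was higher than lmx1b-68365 in 9 of 11 libraries, by 0.52 ± 0.66 (exact p 0.00781, Benjamini-Hochberg 0.00879). Within the groups alone, fev and gata3 had the smallest possible exact p, 0.03125 over 6 injury libraries and 0.0625 over 5 distal libraries. There gata3 and gata2a did not differ past the threshold, with an exact p of 0.0625 in the injury segment and 0.1875 in the distal segments. The same held for gata2a and lmx1b-68365, with an exact p of 0.0625 in the injury segment and 0.125 in the distal segments.

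Whether ISNs at the injury differ in these factors from ISNs elsewhere in the cord was asked with limma on log2 values of all 24178 genes that averaged 0.1 FPKM or more. Of the 5 IDs, 0 had an adjusted p under 0.05, as did 0% of all genes tested, and 0 had an unadjusted p under 0.05, against 2.68% of all genes tested. voom on recovered fragments also called 0 of the 5. In such bulk libraries fewer expressing cells and less RNA per cell cannot be told apart.

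fev differed by 0.09 ± 0.29 (SE) on the log2 scale between injury segment and distal segments, a fold of 1.06 with a 95% confidence interval of 0.709 to 1.60 (limma adjusted p 0.95). Its interval was the narrowest of the 5, with variances drawn toward those of genes of like level. Without that trend the SE was 0.38 for fev, 0.37 for gata3 and 0.36 for lmx1b-68365. The fev difference was -0.18 without distal replicate 3, the lowest library.

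For gata3 the difference was -0.02 ± 0.44 (SE), a fold of 0.988 with an interval of 0.528 to 1.85 (limma adjusted p 0.995). It changed sign with the libraries included and was 0.21 without distal replicate 5, where gata3 was highest. For gata2a it was -0.31 ± 0.56 (SE), a fold of 0.809 with an interval of 0.366 to 1.79 (limma adjusted p 0.895), and -0.62 without injury replicate 3. For lmx1b-68365 it was -0.18 ± 0.55 (SE), a fold of 0.886 with an interval of 0.408 to 1.92 (limma adjusted p 0.949), and 0.0047 without distal replicate 5. Each interval spans lower and higher levels in the injury segment, so the test does not exclude a change of a size inside it. The width of the intervals draws partly on other genes. Without the trend the log2 interval for lmx1b-68365 was -0.97 to 0.62, against -1.29 to 0.94 with it. For fev it was wider without the trend, -0.75 to 0.93 against -0.50 to 0.68.

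Ranks were compared likewise. The share of gene IDs below each factor, compared between groups by exact two-sided permutation over all assignments of the libraries to groups of 6 and 5, had a p between 0.242 and 0.790 for the 5 IDs, where the smallest possible is 0.00216.

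Ratios between factors in the same library do not depend on how the libraries were scaled, apart from the 1 FPKM added. For 11 such ratios between injury segment and distal segments the lowest exact permutation p was 0.216, and each Benjamini-Hochberg value was 0.830 or more. The gata2a to gata3 ratio was 0.365 to 1.64 in the injury segment and 0.450 to 1.21 in the distal segments. It was above 1 in injury replicate 3 and distal replicate 2 and below 1 in the other 9 libraries. The gata3 to lmx1b-68365 ratio varied least, from 1.75 to 3.62 in the injury segment and from 1.93 to 2.64 in the distal segments.

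The ratio of fev to tph2, the tryptophan hydroxylase gene whose promoter marked the sorted cells, was 0.898, 1.36, 0.269, 1.02, 0.892 and 1.87 in injury replicates 1 to 6. In distal replicates 1 to 5 it was 0.872, 0.411, 0.754, 0.865 and 0.581. Injury replicate 3 was the lowest of all 11, and the other 5 injury libraries were all above the 5 distal ones. The log2 ratio differed by 0.44 (exact permutation p 0.370, Benjamini-Hochberg 0.830 over the 11 ratios). With 1 library left out at a time, the exact permutation p ran from 0.00794 to 0.633. The lowest p came without injury replicate 3, where the difference was 0.79. That library was the lowest in the very ratio tested, though the outlier test described further on did not flag it in this ratio. No difference is drawn from leaving it out, since this p is the lowest of those with 1 library left out. tph2 itself was 5396 FPKM in injury replicate 3, the highest of the injury libraries.

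The lmx1b IDs were set against each other next. lmx1b-104815 had 0.0453, 0, 0, 0, 12.5 and 5.63 FPKM in injury replicates 1 to 6, from 1, 0, 0, 0, 210 and 113 fragments. In distal replicates 1 to 5 it had 4.85, 0, 2.2, 47.0 and 17.3 FPKM, from 112, 0, 48, 820 and 366 fragments. It was therefore above 0 in 3 of 6 injury libraries and 4 of 5 distal libraries, and highest in distal replicate 4. The limit that a count of 0 allows, 3 fragments, stands for 0.129 to 0.155 FPKM in the libraries at 0, so a level below that is not excluded there.

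lmx1b-68365 was the higher ID in 11 of 11 libraries, by 5.43 ± 2.0 on the log2 scale (SD; exact sign-flip permutation p 0.000977, the smallest possible; Benjamini-Hochberg 0.00244). The size of that difference depended on the 1 FPKM added, since it was 8.34 with 0.01 FPKM. Where both IDs had fragments, lmx1b-68365 was 16.9-fold higher in injury replicate 5 (95% counting interval 14.8 to 19.5) and 17.7-fold higher in injury replicate 6 (14.7 to 21.5). In distal replicates 1, 3 and 5 it was 24.9-fold, 63.0-fold and 16.0-fold higher. The ratio was smallest in distal replicate 4, at 3.14-fold (2.92 to 3.39), where lmx1b-104815 took 24.1% of the FPKM of the pair. For the libraries at 0, 3 fragments a library were taken as the limit. lmx1b-68365 was then at least 838-fold, 1076-fold and 966-fold higher in injury replicates 2, 3 and 4 and at least 1278-fold higher in distal replicate 2. The counting interval used for the other libraries gave smaller lower limits there, of 682-fold, 875-fold, 786-fold and 1039-fold in that order. In injury replicate 1, with a single fragment of lmx1b-104815, the ratio was 4308 with a counting interval of 773 to 170179. Intervals and limits cover counting error only, since amplified fragments are not independent molecules.

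The share of the pair on lmx1b-104815 averaged 1.83 ± 2.82% in the injury segment (SD, n = 6) and 7.09 ± 9.79% in the distal segments (SD, n = 5), which did not differ past the threshold (exact two-sided permutation p 0.197). The level of lmx1b-104815 differed by -1.71 ± 1.07 (SE) on the log2 scale between injury segment and distal segments, with a 95% confidence interval of -3.91 to 0.48 (limma unadjusted p 0.121, adjusted p 0.838). That value was -4.29 with 0.01 FPKM added and -3.76 with voom on fragments, both with an adjusted p of 0.840 or more. Leaving out distal replicate 4 gave -1.02. Leaving out distal replicate 2 gave -2.41, and the interval was then -4.63 to -0.19 (limma unadjusted p 0.0344, adjusted p 0.867). Markers of dorsal horn lmx1b neurons and roof plate were low. Of 9 such IDs, a TLX3 ID and WNT1 were at 0 in all 11 libraries, and the list summed to 0 to 9.96 FPKM in injury libraries and 0 to 6.50 FPKM in distal libraries. GDF7, a roof plate growth factor gene, reached 6.81 FPKM in injury replicate 1 and 5.37 FPKM in distal replicate 5, and POU4F1 was 3.60 FPKM in injury replicate 5. In distal replicate 4, where lmx1b-104815 was highest, the list summed to 0, and the part of such cells in the levels of any library was not tested. How reads shared by the lmx1b genes were counted is not given in the sources used here, so the split between the IDs is uncertain to that degree.

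**Figure D3:**
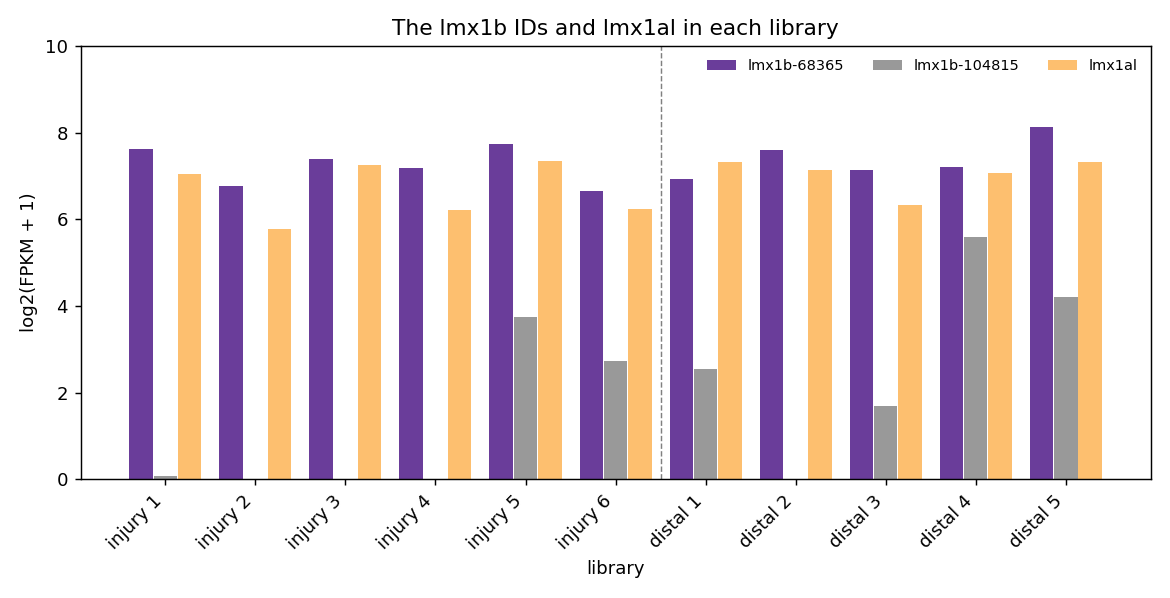
Log2 of FPKM plus 1 (y axis, bars from 0) of lmx1b-68365 (purple), lmx1b-104815 (grey) and lmx1al (orange) in each library (x axis), injury segment left and distal segments right of the dashed line. lmx1b-68365 is above lmx1b-104815 in 11 of 11 libraries, and 4 libraries have no grey bar because lmx1b-104815 is listed at 0.

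Another LIM homeodomain gene of the same kind, lmx1al (ENSDARG00000077915), was also present in every library, unlike lmx1a. It had a lowest, median and highest value of 53.9, 103 and 161 FPKM in the injury segment, against 159, 139, 79.4, 132 and 159 FPKM in distal replicates 1 to 5. The groups overlapped (log2 difference -0.39 ± 0.60 SE, limma adjusted p 0.869). lmx1b-68365 was above lmx1al in 10 of 11 libraries, by 0.48 ± 0.41 on the log2 scale (SD; exact sign-flip permutation p 0.00488, Benjamini-Hochberg 0.00814). Distal replicate 1 was the exception.

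Covariation was measured over the 11 libraries for all 10 pairs of IDs on the log2 scale, with 100000 permutations. gata3 and lmx1b-68365 had the highest coefficient, a Pearson's r of 0.76 (permutation p 0.00597, Benjamini-Hochberg 0.0597) and a Spearman's rho of 0.63 (permutation p 0.0451, Benjamini-Hochberg 0.211). Without distal replicate 5 and injury replicate 5, the libraries farthest from the median of gata3, r was 0.44. Leaving out the extremes narrows the range of gata3, which can by itself lower r, so this cannot show what the relation rests on. Within the 6 injury libraries r was 0.57 (exact permutation p 0.243) and rho 0.49 (exact permutation p 0.356). No coefficient is given for the 5 distal libraries alone, where both genes were highest in replicate 5, next in replicate 2 and lowest in replicate 1. With each library rescaled to the same sum r was 0.84 and passed the threshold (Benjamini-Hochberg 0.00980). It also passed with an r of 0.83 without injury replicate 1 (permutation test, Benjamini-Hochberg 0.0337) and with an r of 0.84 without injury replicate 6 (Benjamini-Hochberg 0.0261), and was 0.60 without distal replicate 5 (Benjamini-Hochberg 0.462).

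gata2a and lmx1b-68365 had an r of 0.58 (permutation p 0.0631, Benjamini-Hochberg 0.316) and a rho of 0.62 (permutation p 0.0474, Benjamini-Hochberg 0.211), and r was 0.81 without injury replicate 3 and distal replicate 2. Within the injury libraries r was 0.53 (exact permutation p 0.300) and rho 0.77 (exact permutation p 0.103). The paralogues gata2a and gata3 had an r of 0.46 (permutation p 0.148, Benjamini-Hochberg 0.494) and a rho of 0.58 (permutation p 0.0634, Benjamini-Hochberg 0.211), and r was 0.68 without the same libraries. Within the injury libraries r was 0.16 (exact permutation p 0.674) and rho 0.60 (exact permutation p 0.242).

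No relation of fev with another factor passed the threshold. Its r was -0.04 with gata3 (permutation p 0.914), 0.02 with lmx1b-68365 (permutation p 0.963) and -0.33 with gata2a (permutation p 0.330), and the rho values were -0.36, -0.03 and -0.19 (permutation p 0.273, 0.946 and 0.576). No pair with fev had a Benjamini-Hochberg value under 0.545. Leaving out the libraries farthest from the median, r was -0.29 for gata3 and fev, -0.05 for gata2a and fev and -0.19 for fev and lmx1b-68365. Within the injury libraries r was -0.17 for gata3 and fev, -0.89 for gata2a and fev and -0.22 for fev and lmx1b-68365 (exact permutation p 0.679, 0.0583 and 0.732). The rho values of these pairs there were -0.60, -0.49 and -0.14, none with an exact permutation p under 0.242.

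The lmx1b IDs did not vary together past the threshold either, with an r of 0.17 (permutation p 0.610) and a rho of 0.21 (permutation p 0.526), and an r of 0.03 without distal replicate 5 and injury replicate 6. lmx1b-104815 had an r of -0.30 with gata2a, 0.12 with gata3 and 0.24 with fev (permutation p 0.371, 0.727 and 0.492). Its rho values in that order were -0.21, -0.01 and 0.37 (permutation p 0.532, 0.972 and 0.258). Over the 10 pairs no Benjamini-Hochberg value was under 0.05, and within the injury libraries no exact permutation p was under 0.0583.

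**Figure D4:**
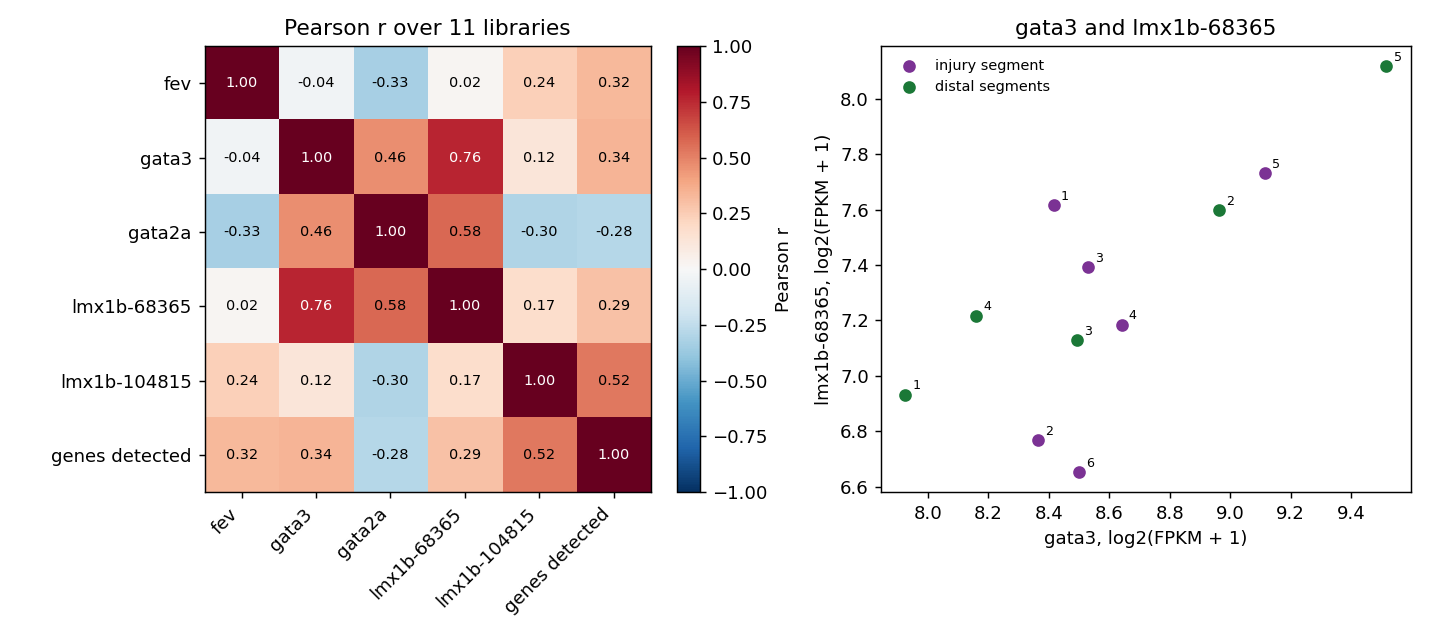
Left, Pearson's r over 11 libraries between the log2 values of each pair of gene IDs and the number of genes detected (colour scale from -1 to 1, value in each cell). Right, lmx1b-68365 against gata3 (both log2 of FPKM plus 1) in injury segment (purple) and distal segments (green) libraries with replicate numbers, where replicate 5 of each group lies at the upper right and r is 0.76.

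Each ID was also set against the number of genes detected, since libraries differed in that number. The highest coefficient was that of lmx1b-104815, with an r of 0.52 (permutation p 0.0971, Benjamini-Hochberg 0.395) and a rho of 0.67 (permutation p 0.0288, Benjamini-Hochberg 0.144) over 11 libraries, and an r of 0.31 without injury replicates 2 and 3. For gata2a, gata3, fev and lmx1b-68365 the coefficients were -0.28, 0.34, 0.32 and 0.29 (permutation p 0.395, 0.310, 0.341 and 0.387), and the rho values -0.08, 0.19, 0.40 and 0.22. After the number of genes detected was taken out by linear fit, r was 0.74 for gata3 and lmx1b-68365, 0.72 for gata2a and lmx1b-68365 and 0.62 for gata2a and gata3.

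The genes whose pattern over the 11 libraries was most like each factor were taken from the genes above 0 in all libraries that averaged 1 FPKM or more, by Pearson's r of the log2 values, as a description with no test. Of 2280 such genes, EEF1A1, a translation elongation factor, was closest to gata2a (r 0.94), followed by PCSK1, a prohormone convertase (r 0.93), and MACO1 (r 0.91). For gata3 they were the 14-3-3 gene YWHAH (r 0.88), the chaperone HSPA8 (r 0.85) and the stress factor DDIT3 (r 0.85). For fev they were MAP1LC3B and MAP1LC3A, which encode autophagy proteins (r 0.94 and 0.92), and golga7 (r 0.92).

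For lmx1b-68365 the closest was pcsk1nl (r 0.89), then DDC, which encodes the decarboxylase that makes serotonin from its precursor (r 0.88), and tuba1b (r 0.85). For lmx1b-104815, over 2281 genes, they were the kinase gene MKNK2 (r 0.89), ENSDARG00000096922 (r 0.83) and APC (r 0.81). All these libraries share a kit and differ in the number of genes detected.

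The other factors stood at varied places in these orders. Among the 2280 genes, lmx1b-68365 was 17th by likeness to gata3, gata2a was 279th and fev 1386th. By likeness to lmx1b-68365, gata3 was 21st, lmx1al 57th, tph2 82nd and gata2a 193rd. tph2 was 41st by likeness to gata2a (r 0.78) but 813th by likeness to fev (r 0.19).

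The other genes of the pathway were followed in 8 lists, 1 of which holds the 5 IDs themselves, and none had an ID with a limma adjusted p under 0.05. Medians of the log2 difference over a list are set beside -0.04, the median over all genes tested. Those over the IDs that averaged 1 FPKM or more are set beside -0.21, the median over all genes with that average. Among the upstream regulators, 6 of 11 IDs were tested, 0 had an unadjusted p under 0.05 in either direction, and the median difference was 0.13. It was -0.26 over the few IDs that averaged 1 FPKM or more. Those were the INSM1 IDs, nkx2.2b and FOXA2, with differences from -1.16 to 0.89. INSM1 is a zinc-finger factor that acts in the differentiation of monoamine neurons in mice. Its ID ENSDARG00000091756 was the only one of this list above 0 in all 11 libraries. It had a lowest, median and highest value of 75.3, 151 and 204 FPKM in the injury segment, against 92.0, 172, 75.4, 72.7 and 445 FPKM in distal replicates 1 to 5. It was thus above 0 in all 11 libraries, with overlapping groups. The early ventral regulators that had a match in the names table were at 0 in most libraries. nkx2.2a had no match there, so it has no value here. nkx2.2b was above 0 in 1 of 6 injury libraries and 4 of 5 distal libraries with a highest value of 9.03 FPKM, FOXA2 in 0 of 6 and 2 of 5 libraries with a highest value of 27.6 FPKM, and FOXA1 and nkx2.9 were at 0 throughout.

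Among the partner factors, which bind GATA or LIM homeodomain proteins or share their complexes, 15 of 16 IDs were tested and 2 had an unadjusted p under 0.05, both lower in the injury segment, with a median difference of 0.14 over the list. Over all genes tested 2.03% were lower in the injury segment at that threshold, and 0.658% higher, a split that turned round without injury replicates 2 and 3, where 217 of 1100 such genes were lower. They were the cofactor ID LDB1 (ENSDARG00000103158), which bridges LIM domain proteins, and lmo4a, a LIM-only gene. The LDB1 ID had a lowest, median and highest value of 0, 0.0707 and 7.88 FPKM in the injury segment, against 4.59, 10.9, 4.02, 8.60 and 12.9 FPKM in distal replicates 1 to 5. The groups overlapped through injury replicate 5 (log2 difference -2.32 ± 0.91 SE, limma unadjusted p 0.0166, adjusted p 0.838). A second LDB1 ID (ENSDARG00000010137) had a lowest, median and highest value of 0, 30.6 and 142 FPKM in the injury segment and 18.8 to 41.0 FPKM in the distal segments. LMO4 (ENSDARG00000054749) and LDB2 (ENSDARG00000034896) were above 0 in all 11 libraries. TAL2, a partner of GATA factors, was found in injury replicates 1, 5 and 6, at 2.21, 8.70 and 3.69 FPKM, and was at 0 in the other 3 injury libraries and all 5 distal libraries (limma unadjusted p 0.0705, adjusted p 0.838). Those were the injury libraries with the most genes detected, 14289, 16019 and 15362, and TAL2 also stands in the marker list for cerebrospinal fluid-contacting and V2b neurons described further on. The part of either in its level was not tested.

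Of the factors that act later in serotonergic neurons, 10 of 17 IDs were tested, 0 had an unadjusted p under 0.05, and the median difference was 0.39. It was 0.80 over the few IDs that averaged 1 FPKM or more, whose differences ran from -1.43 to 1.26. SOX1 (ENSDARG00000008131) was the one ID of this list above 0 in all 11 libraries. It had a lowest, median and highest value of 37.5, 79.7 and 134 FPKM in the injury segment, against 16.1, 67.1, 48.4, 35.1 and 71.0 FPKM in distal replicates 1 to 5 (log2 difference 0.81 ± 0.70 SE, limma adjusted p 0.838). A second SOX1 ID (ENSDARG00000069866) went the other way (log2 difference -1.43 ± 1.03 SE, limma adjusted p 0.838). It was 0 to 9.68 FPKM in the injury segment and 0 to 27.4 FPKM in the distal segments. The engrailed IDs, which belong to midbrain and rostral hindbrain serotonergic neurons in mice, were at 0 or reached 0.040 FPKM at most.

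The families of the factors were followed next, GATA factors first. Of 8 GATA family IDs, gata2a and gata3 were above 0 in every library, gata1a, GATA5 and GATA6 were at 0 throughout, and gata1b, gata2b and gata4 reached 2.27, 0.724 and 1.36 FPKM in injury libraries and were at 0 in distal libraries. Of 25 ETS family IDs, fev was the only one above 0 in all 11 libraries. The next highest, ets2, had a lowest, median and highest value of 0, 35.4 and 80.9 FPKM in the injury segment, against 18.4, 85.6, 55.2, 16.2 and 171 FPKM in distal replicates 1 to 5. Of 19 LIM homeodomain IDs, lmx1b-68365 and lmx1al were above 0 in every library, and 8 were tested. An ISL2 ID (ENSDARG00000003971), 1 of those 8, had an unadjusted p under 0.05, against 2.03% of all genes tested that were lower at that threshold. It was at 0 in all injury libraries and above 0 in 3 of 5 distal libraries, at up to 5.59 FPKM (limma unadjusted p 0.0402, adjusted p 0.838). Over these 3 families the median differences were 0.09 for GATA, -0.09 for ETS and -0.29 for LIM homeodomain IDs.

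The serotonin handling list, which holds the genes that make, package, take up and sense serotonin, had 17 of 23 IDs tested and 0 with an unadjusted p under 0.05, with a median difference of -0.35, or 0.0076 over the IDs that averaged 1 FPKM or more. TPH2 ranked 7 to 57 from the top. It had a lowest, median and highest value of 1590, 2583 and 5396 FPKM in the injury segment, against 3567, 6042, 1462, 3327 and 4957 FPKM in distal replicates 1 to 5 (log2 difference -0.35 ± 0.32 SE, limma adjusted p 0.838). The highest TPH2 value of each group was in the library with the highest gata2a value, injury replicate 3 and distal replicate 2.

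**Figure D5:**
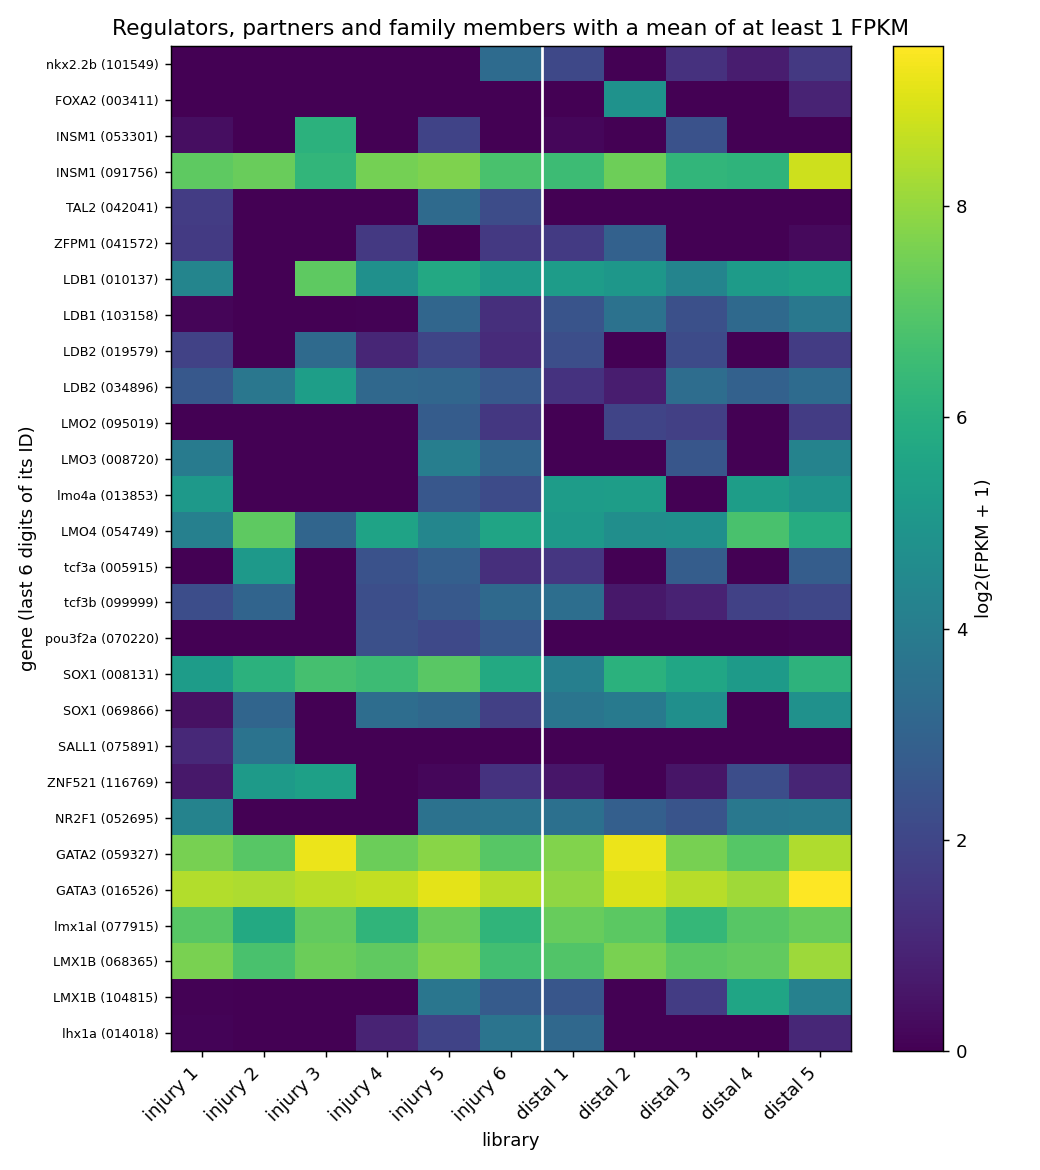
Log2 of FPKM plus 1 (colour scale from 0) of 28 IDs of the upstream, partner, later, GATA and LIM homeodomain lists that averaged 1 FPKM or more (rows, with the last 6 digits of the ID), in injury segment libraries left and distal segments libraries right of the white line. GATA2, GATA3, the upper LMX1B row, lmx1al, the lower INSM1 row and the upper SOX1 row are bright in all 11 libraries, and most other rows are near 0 in several libraries.

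Markers of other cells that express these factors were checked beside them. The list for cerebrospinal fluid-contacting and V2b neurons, where gata2 and gata3 are also used, had 13 IDs, and NPY was at 0 in all libraries. Its summed level was 447 and 888 FPKM in injury replicates 5 and 6, 92.6 to 182 FPKM in the other injury libraries and 49.3 to 130 FPKM in distal libraries. urp1, a neuropeptide gene of cerebrospinal fluid-contacting neurons, was 213 and 537 FPKM in injury replicates 5 and 6, at 0 in the other 4 injury libraries and 4.03 FPKM or less in distal libraries. gata3 was 553 and 361 FPKM and gata2a 225 and 132 FPKM in injury replicates 5 and 6, and the part of such cells in these levels was not tested. Of the list, 2 to 12 IDs were above 0 in injury libraries and 3 to 8 in distal libraries. The SOX1 ID ENSDARG00000008131 and GAD2 were above 0 in all 11, and SOX1 also stands in the list of later serotonergic factors.

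For endothelium and blood, where gata2 and ETS genes other than fev are used, the markers that had a match in the names table were low. pecam1, hbba1 and hbba2 had no match there. The 7 endothelial IDs summed to 0 to 2.95 FPKM in injury libraries and 0 to 0.0826 FPKM in distal libraries, and the 7 blood IDs to 0 to 22.0 FPKM and 0 to 9.89 FPKM, with gata1a at 0 in all 11 libraries. An SLC4A1 ID (ENSDARG00000012881) was above 0 in 7 libraries, at up to 13.3 FPKM, and hbaa1 was 20.1 FPKM in injury replicate 6. Markers of other cells reached higher levels. The 8 oligodendrocyte IDs summed to 0 to 63.6 FPKM in injury replicates 1 to 5 and to 753 FPKM in injury replicate 6, against 162 to 702 FPKM in distal libraries. mbpa, a myelin basic protein gene of that list, had a lowest, median and highest value of 0, 21.9 and 234 FPKM in the injury segment, against 530, 531, 299, 237 and 129 FPKM in distal replicates 1 to 5. The groups overlapped through injury replicate 6 (log2 difference -4.54 ± 1.04 SE, limma unadjusted p 0.000171, adjusted p 0.838). The 9 ependymo-radial glia IDs summed to 120 to 533 FPKM in injury libraries and 65.4 to 805 FPKM in distal libraries. In distal replicate 2, with the highest sum, a GLUL ID (ENSDARG00000099776) was 544 FPKM, S100B 39.9 FPKM and GFAP 1.64 FPKM. GFAP was above 0 in 7 of the 11 libraries. The 7 microglia and macrophage IDs summed to 0 to 105 FPKM and 0.193 to 154 FPKM. apoeb alone was 144 FPKM in distal replicate 4, csf1ra reached 0.0575 FPKM at most, and CORO1A was at 0 in all 11 libraries. The part of these cells in the levels of the factors was not tested.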

How the data were processed

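RNA of sorted ISNs was sequenced in 6 injury segment and 5 distal segments libraries. The authors prepared cDNA by the SMART-Seq v4 chemistry for low input, and the submitters' processing notes name HISAT2 2.0.5, HTSeq 0.9.1 and the build danRer11. The deposited values are FPKM calculated by the authors from gene length and mapped fragments, with no filter. All columns belong to the 11 libraries. Names came from a table that matched 29201 of 39714 IDs. It gives many mammalian symbols, so list symbols were matched ignoring case or, failing that, without the paralog letter. Some list symbols had no match and so no values, among them nkx2.2a, sst1.1, mpeg1.1, pecam1, hbba1 and hbba2.

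Library totals and fragments were recovered from the FPKM values, which are whole fragments divided by length and total (whole for all 29512 IDs above 0; totals within 0.0107 of a whole number). This was tested on simulated data. limma 3.58.1 in R 4.3.3 (trend, two-sided, Benjamini-Hochberg over 24178 genes) was run on log2(FPKM + 1), for genes averaging 0.1 FPKM or more; called means an adjusted p under 0.05. The authors' DESeq test was not repeated, and voom was run on the recovered fragments as an alternative. Single values were compared with exact permutation tests over all assignments, levels inside a library with exact sign-flip tests, and relations with 100000 permutations, or all pairings over 6 libraries, in Python 3.11.15 (scipy 1.17.1, numpy 2.4.6, matplotlib 3.10.9, pandas 2.3.3). Named were the 5 IDs, list genes, and the 3 genes nearest to each ID. Alternatives were pseudocounts of 0.1 and 0.01, filters, scalings, no trend, a replicate block, a covariate, voom and leaving out libraries. A regulator of the upstream list is not reported here and was left out of its counts. The 5 IDs and the lists were chosen with earlier results of these data known. The LDB1, lmo4a, ISL2, TAL2, mbpa and urp1 genes were singled out after their values were seen.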

Additional observations from a re-analysis of the deposited data

Results flagged for a closer look

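The highest and lowest library of each group were compared with the others by their gap over the range of the group (Dixon's test), for the 5 levels and 11 ratios in both groups, 32 in all. Chance flags about 1 in 20 such groups, and the ratios share their genes with the levels, so the 7 that stood out are not independent.

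Injury replicate 3 accounted for 5 of them. Its gata2a level was 9.24 on the log2 scale, the highest of the injury libraries, and its fev level was 10.50, the lowest. The log2 ratios of that library were 1.26 for fev over gata2a, 0.71 for gata2a over gata3 and 1.85 for gata2a over lmx1b-68365. It was the library with the fewest genes detected, 4530, and the part of that was not tested.

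Of the others, gata3 stood high in injury replicate 5, at 9.11 on the log2 scale, a library with 16019 genes detected and a summed level of 447 FPKM of the list for cerebrospinal fluid-contacting and V2b neurons. Injury replicate 6 had a higher sum of that list, 888 FPKM, with gata3 at 361 FPKM. The part of either in the gata3 level was not tested. fev stood low in distal replicate 3, at 10.11.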

How the results depend on the processing

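No alternative brought any of the 5 IDs to an adjusted p under 0.05. The count over all genes was 2 without a trend and 2 with voom on fragments, against 0. Unadjusted p-values under 0.05 numbered 1130 with genes detected as a covariate, 1236 with voom and 1100 without injury replicates 2 and 3, an alternative chosen after seeing the data, against 649. Of the 649, 159 were higher in the injury segment. It was 315 of 779 with quantile normalization, 436 of 1130 with the covariate, 596 of 1236 with voom, 386 of 739 without injury replicate 3, 343 of 679 without injury replicate 2 and 883 of 1100 without both. Leaving out 1 library at a time, the log2 difference ran from -0.62 to 0.0054 for gata2a, -0.19 to 0.21 for gata3, -0.18 to 0.25 for fev, -0.29 to 0.0047 for lmx1b-68365 and -2.41 to -1.02 for lmx1b-104815. For gata3 it was 0.056 without injury replicates 2 and 3. Whether replicate numbers shared by the groups pair the libraries could not be told, since correlations between libraries were weak. The correlation of deviations of same-numbered libraries ran from -0.05 to 0.13, with a mean of 0.028 against -0.0046 for other pairs. Of 5 distal libraries, 2 were closest to their own number. With the replicate block, which leaves out injury replicate 6, the gata3 difference was 0.0013 against -0.02 in the main test, and no call changed. Leaving out injury replicate 6 with no block also gave 0.0013.

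For the ratios, the range over single libraries left out was -0.13 to 0.38 for fev over gata3, -0.41 to 0.13 for gata2a over lmx1b-68365, 0.23 to 0.79 for fev over tph2 and -0.19 to 0.25 for gata2a over tph2. Without injury replicates 2 and 3 it was 0.73 for fev over tph2 (exact permutation p 0.0397, not adjusted over the ratios) and -0.052 for gata2a over tph2. Differences in the percentage of IDs below ran from -0.34 to 0.10 for gata2a, -0.066 to 0.16 for gata3, -0.0023 to 0.033 for fev and -0.26 to 0.058 for lmx1b-68365, which was 0.048 without injury replicates 2 and 3.

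For covariation, single libraries left out gave an r of -0.21 to 0.10 for gata3 and fev, 0.60 to 0.84 for gata3 and lmx1b-68365, -0.20 to 0.43 for gata3 and lmx1b-104815, -0.13 to 0.13 for fev and lmx1b-68365 and -0.083 to 0.28 for the lmx1b IDs. Rescaled to the same sum, r was 0.16 for gata3 and fev and 0.84 for gata3 and lmx1b-68365. With median-ratio scaling it was -0.063 for gata3 and lmx1b-104815, -0.10 for fev and lmx1b-68365 and -0.018 for the lmx1b IDs, and after genes detected it was -0.071 for gata3 and lmx1b-104815 and -0.085 for fev and lmx1b-68365. With a mean of at least 1 FPKM the median difference was -0.26 for upstream regulators and 0.80 for later factors, both over few IDs, and 0.0076 for serotonin handling. Over all genes with such a mean it was -0.21. The cause was not tested for any of these. Levels inside a library and ranks kept their direction and side of the threshold under all alternatives run.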
